A study of Mus musculus with 8 samples.

Results

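The malate-aspartate shuttle carries the reducing equivalents of cytosolic NADH into mitochondria, and the mitochondrial pyruvate carrier brings pyruvate across the inner membrane. Of the 27277 gene rows of the RNA table, the 9 that bear these names were taken: Mdh1, Mdh2, Got1, Got2, Slc25a10, Slc25a11, Slc25a12, Mpc1 and Mpc2. Each of the 9 had a row and passed the filter on low counts, which left 15135 genes for testing. The question was whether their RNA differed between hepatocytes with and without Lcmr1, and where the ChIP regions of each genotype lay over them.

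The series holds 8 mouse libraries, made from primary hepatocytes of liver that were cultured for 24 h and given 100 nM glucagon for 12 h. Control cells had the genotype Lcmr1f/f, and knockout cells carried the same floxed gene together with albumin-cre, a recombinase driven by a hepatocyte promoter. There were 3 RNA libraries and 1 ChIP library per genotype. Glucagon was present in both genotypes, so the response to the hormone cannot be read. The sources used here give no age or sex of the mice, and no label ties the numbered libraries to different animals. The p-values therefore refer to the spread between libraries, and that spread may be technical.

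In the shuttle, cytosolic malate dehydrogenase (Mdh1) reduces oxaloacetate to malate, the 2-oxoglutarate carrier (Slc25a11) exchanges malate for 2-oxoglutarate, and mitochondrial malate dehydrogenase (Mdh2) turns malate back into oxaloacetate. The aspartate aminotransferases Got2 and Got1 and an aspartate-glutamate carrier, Slc25a12 or Slc25a13, complete the circuit. In a fasting liver the same enzymes also move carbon and reducing power out of mitochondria for glucose synthesis, and the dicarboxylate carrier Slc25a10 exports malate in exchange for phosphate. Mpc1 and Mpc2 form the carrier through which pyruvate reaches pyruvate carboxylase and pyruvate dehydrogenase.

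The RNA libraries held 22191786 to 26595249 counts each. The targeted gene is listed under its current name, Med19, a subunit of the Mediator complex. It had 154, 226 and 248 counts in the control libraries against 90, 166 and 97 in the knockout libraries, a log2 fold change of -1.5 (SE 0.31, adjusted p = 0.012, edgeR quasi-likelihood test). Of the 7 hepatocyte markers measured, 7 were lower in the knockout. Their summed level was 108600 to 112300 CPM in the controls against 26880 to 35950 in the knockouts. CPM here are counts scaled to library sizes that were first adjusted by trimmed mean of M-values (TMM) factors. Of 13 macrophage markers 10 were higher, with summed levels of 396.6 to 464.6 CPM against 799.9 to 940.9. Of 8 endothelial, 9 stellate and 5 tested cholangiocyte markers, 1, 1 and 0 were higher and none was lower, with summed levels of 230.3 to 290.9 against 276.4 to 445.7, 128.4 to 257.1 against 254.9 to 304.3, and 40.93 to 166.6 against 49.65 to 75.58 CPM. These calls depended on the scaling. With library size alone, 5 hepatocyte markers were lower, and 12 macrophage, 8 endothelial, 6 stellate and 2 cholangiocyte markers were higher. That fit called 7711 of the tested genes higher and 617 lower. No marker in any of these lists was at 0 in all 6 libraries. The part of these shifts in the results that follow was not tested, and fewer cells of a type cannot be told apart from less RNA per cell. Control replicate 1 stood apart: the chi-square per degree of freedom between libraries was 149.7 and 143.2 for its pairs with control replicates 2 and 3, against 7.41 between those 2. Between knockout replicates it was 29.4 for 1 and 2, 27.3 for 1 and 3, and 54.7 for 2 and 3, so these also differed. Among the 9 genes, results that rest on control replicate 1 are given with and without that library.

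Mdh2 and Slc25a11 rose in the knockout and Slc25a10 fell, while Mdh1, Got1, Got2, Slc25a12, Mpc1 and Mpc2 did not pass the test. Of all genes tested, 25.5% were called (3865 of 15135), 12.6% higher and 13% lower. Among the 9 genes 2 were higher and 1 was lower, with a median log2 fold change of 0.38 against 0.01 over all genes. Calls are those of the edgeR quasi-likelihood test at a Benjamini-Hochberg adjusted p under 0.05, and levels are CPM on library sizes scaled by trimmed mean of M-values (TMM). Exon lengths were not at hand, so levels are compared between libraries for 1 gene and not between genes.

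**Figure D1:**
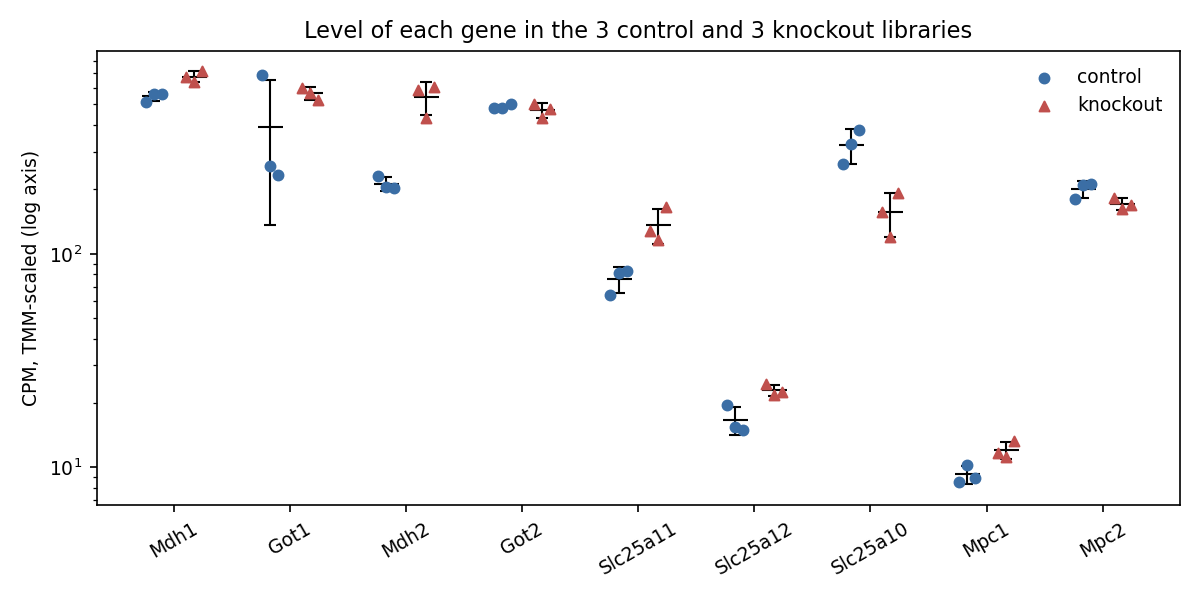
Level of each of the 9 genes in the 3 control (circles) and 3 knockout (triangles) libraries, in TMM-scaled CPM on a log axis, with lines for the mean and bars for the SD. Mdh2 and Slc25a11 are higher and Slc25a10 is lower in all 3 knockout libraries than in any control, and the Got1 control of 687.9 CPM lies apart from the other two; heights of different genes are not comparable because gene length is not taken out.

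Mdh2 (ENSMUSG00000019179, chr5:135778480-135790398, mm10, plus strand), the mitochondrial malate dehydrogenase, had the largest change of the 9 genes. It stood at 232, 204.4 and 202.6 CPM in the controls and at 584.2, 434.4 and 604.2 CPM in the knockouts. Every knockout library lay above every control library. The means were 213 ± 16.5 and 540.9 ± 92.8 CPM (SD, n = 3), a 2.54-fold rise with a log2 fold change of 1.35 (SE 0.15, adjusted p = 0.0012, edgeR). In the authors' deposited table the log2 fold change was 1.33 with an adjusted p of 6.9e-12, and the gene is marked as changed. Leaving out any 1 of the 6 libraries kept the log2 fold change between 1.25 and 1.46, with adjusted p from 0.00029 to 0.011.

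Its cytosolic counterpart Mdh1 (ENSMUSG00000020321, chr11:21556787-21572367, minus strand) stood at 512.7, 560.9 and 562.1 CPM in the controls and at 673.9, 636.2 and 714.2 CPM in the knockouts. The groups did not overlap, but the means of 545.2 ± 28.2 and 674.8 ± 39 CPM differed by a log2 fold change of 0.31 (SE 0.11) that missed the threshold (adjusted p = 0.071, edgeR). Upper-quartile scaling (0.38, adjusted p = 0.045) and DESeq2 (0.30, adjusted p = 0.034) called it higher, and over its 11 alternatives the adjusted p ran from 0.0012 to 0.19. Mdh1 shares 133 bases with Wdpcp on the opposite strand. Wdpcp had 92 raw counts in the controls against 262 in the knockouts, not scaled between libraries.

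Within a library, Mdh2 had 0.453, 0.364 and 0.36 counts for each Mdh1 count in the controls against 0.867, 0.683 and 0.846 in the knockouts. Such a ratio does not depend on the scaling between libraries, and only its change is read, since its size also reflects gene length. The ratio was 2.03-fold higher in the knockout, a difference of 1.02 on the log2 scale between means of -1.36 ± 0.18 and -0.33 ± 0.19 (SD, n = 3). The groups did not overlap, which gives the smallest p that 3 against 3 libraries allow (exact two-sided permutation p = 0.1, 0.167 adjusted over the 5 ratios tested).

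Got1, the cytosolic aspartate aminotransferase (ENSMUSG00000025190, chr19:43499752-43524605, minus strand), differed more among its controls than between genotypes. Control replicate 1 stood at 687.9 CPM, above every knockout library, and the other controls at 257 and 232.9 CPM. The knockouts stood at 599.8, 565.4 and 525.9 CPM. The coefficient of variation was 65.2% in the controls against 6.56% in the knockouts, around means of 392.6 ± 256 and 563.7 ± 37 CPM (SD, n = 3). Knockout against control, the log2 fold change came to 0.52 (SE 0.41, adjusted p = 0.39, edgeR). Without control replicate 1 it was 1.2 with an adjusted p of 0.00012, and over all 11 alternatives it ran from 0.25 to 1.2 with adjusted p from 0.00012 to 0.69.

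The mitochondrial isoform Got2 (ENSMUSG00000031672, chr8:95864134-95888547, minus strand) stood at 479.2, 479.7 and 499.8 CPM in the controls and at 501.5, 431.2 and 476.4 CPM in the knockouts. The groups overlapped, with means of 486.2 ± 11.8 and 469.7 ± 35.6 CPM and a log2 fold change of -0.05 (SE 0.11, adjusted p = 0.76, edgeR). Its processed copy Got2-ps1 held 0.413% of the joint counts in the controls against 0.674% in the knockouts. The counts of Got2 per count of Got1 were 0.697, 1.87 and 2.15 in the controls against 0.836, 0.763 and 0.906 in the knockouts. This ratio overlapped between groups through control replicate 1 (log2 difference -0.76, exact permutation p = 0.4, adjusted 0.5), and the difference was -1.27 without that library.

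Slc25a11, the carrier that exchanges malate for 2-oxoglutarate (ENSMUSG00000014606, chr11:70644196-70647479, minus strand), stood at 64.19, 80.96 and 83.16 CPM in the controls and at 127.4, 116 and 164.8 CPM in the knockouts. Every knockout library was above every control. The means of 76.11 ± 10.4 and 136.1 ± 25.6 CPM (SD, n = 3) gave a 1.79-fold rise, with a log2 fold change of 0.84 (SE 0.17, adjusted p = 0.00997, edgeR). With any 1 library left out the log2 fold change lay between 0.67 and 0.93 and the adjusted p between 0.0077 and 0.033. In the authors' deposited table the log2 fold change is 0.83 with adjusted p = 0.00029, and the gene is not marked. The genes marked there, Mdh2 and Slc25a10, have larger log2 fold changes of 1.33 and -1.065. Slc25a11 shares 245 bases with Rnf167 on the opposite strand, and no source used here gives the strand setting of the counting. Rnf167 had 3330 control and 6004 knockout counts, which are raw and not scaled between libraries. The raw counts of Slc25a11 were 1318, 1698 and 1544 in the control libraries against 3947, 3651 and 5288 in the knockout libraries.

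Slc25a12 (ENSMUSG00000027010, chr2:71271063-71367749, minus strand) is the calcium-regulated aspartate-glutamate carrier best known from brain and muscle. It stood at 19.63, 15.5 and 14.97 CPM in the controls and at 24.47, 21.79 and 22.63 CPM in the knockouts. The groups did not overlap, and the log2 fold change of 0.46 (SE 0.14) did not pass (adjusted p = 0.051, edgeR). It passed without control replicate 1 (0.59, adjusted p = 0.0082), and its adjusted p over 11 alternatives ran from 0.00083 to 0.17. The liver form of the same carrier, Slc25a13 (citrin), stood at 262.7, 279.2 and 265.9 CPM in the controls and at 186.9, 203.3 and 180.6 CPM in the knockouts. It fell by 0.50 on the log2 scale (SE 0.10, adjusted p = 0.012, edgeR), with means of 269.3 ± 8.77 and 190.3 ± 11.7 CPM. This call was lost without control replicate 2 (adjusted p = 0.051) and without knockout replicate 1 (adjusted p = 0.055), where the log2 fold change was still -0.48 and -0.50. It was also lost with library size alone, where the log2 fold change was 0.086 (adjusted p = 0.52, edgeR) and the median of all genes 0.60. Over 11 alternatives the adjusted p ran from 0.00012 to 0.52.

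Slc25a10, the dicarboxylate carrier (ENSMUSG00000025792, chr11:120491840-120499187, plus strand), was the 1 gene of the 9 that fell. It stood at 262.3, 327.9 and 381.6 CPM in the controls and at 156.2, 119.7 and 192.5 CPM in the knockouts. All 3 knockout libraries lay below the lowest control. The means of 323.9 ± 59.7 and 156.1 ± 36.4 CPM (SD, n = 3) differed 2.08-fold, with a log2 fold change of -1.05 (SE 0.21, adjusted p = 0.0094, edgeR). With any 1 library left out the log2 fold change stayed between -1.24 and -0.91 and the adjusted p between 0.0031 and 0.042. The authors' deposited table gives -1.06 with an adjusted p of 3.53e-05 and marks the gene. With library size alone as the scaling the log2 fold change was -0.46 (adjusted p = 0.12), in a fit where the median of all genes was 0.60.

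The malate carriers therefore differed in direction. For each Slc25a10 count there were 0.245, 0.247 and 0.218 Slc25a11 counts in the controls against 0.816, 0.969 and 0.856 in the knockouts. This was the largest change of the 5 ratios, 3.72-fold or 1.89 on the log2 scale, between means of -2.08 ± 0.10 and -0.19 ± 0.13 (SD, n = 3). The exact permutation p was 0.1, the smallest possible (0.167 adjusted). For Slc25a11 over Slc25a12 the ratios were 3.27, 5.22 and 5.55 in the controls against 5.2, 5.32 and 7.28 in the knockouts, which overlap (log2 difference 0.36, exact permutation p = 0.5, adjusted 0.5). Without control replicate 1, the lowest of these, the log2 difference was 0.12.

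Mpc1 (ENSMUSG00000023861, chr17:8282904-8297661, plus strand) and Mpc2 (ENSMUSG00000026568, chr1:165460637-165481214, plus strand) encode partner subunits of the pyruvate carrier. Mpc1 stood at 8.57, 10.3 and 8.94 CPM in the controls and at 11.7, 11.2 and 13.3 CPM in the knockouts, without overlap. Its log2 fold change of 0.38 (SE 0.15) did not pass (adjusted p = 0.11, edgeR). Most reads that could belong to it are listed under its processed pseudogene Mpc1-ps (chr12:110858565-110858894), which took 89.2% of the joint counts in the controls against 90% in the knockouts. Mpc1-ps had 1359, 1806 and 1440 counts in the controls against 3303, 3295 and 3633 in the knockouts, and was called higher (log2 fold change 0.50, SE 0.12, adjusted p = 0.023, edgeR). The sum of both rows rose from 85.89 ± 10.8 to 120.3 ± 5.58 CPM (log2 fold change 0.49, SE 0.12, adjusted p = 0.024, edgeR). How the reads divide between the gene and its copy cannot be settled from counts, so the level of Mpc1 is uncertain. Mpc1 also shares 4296 bases with 4930506C21Rik on the opposite strand, which had 40 control and 84 knockout raw counts, not scaled between libraries.

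Mpc2 stood at 180.4, 209.6 and 212.7 CPM in the controls and at 182.7, 161.9 and 169.6 CPM in the knockouts. The groups overlapped, with means of 200.9 ± 17.9 and 171.4 ± 10.5 CPM and a log2 fold change of -0.23 (SE 0.11, adjusted p = 0.18, edgeR). Without control replicate 1 it was called lower (-0.30, adjusted p = 0.046), and over 11 alternatives the adjusted p ran from 0.046 to 0.39. The counts of Mpc2 per count of Mpc1 were 21, 20.3 and 23.7 in the controls against 15.6, 14.4 and 12.8 in the knockouts. The ratio was 1.52-fold lower without overlap (log2 difference -0.60, exact permutation p = 0.1, adjusted 0.167), and with the pseudogene counts added to Mpc1 the log2 difference was -0.72.

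**Figure D2:**
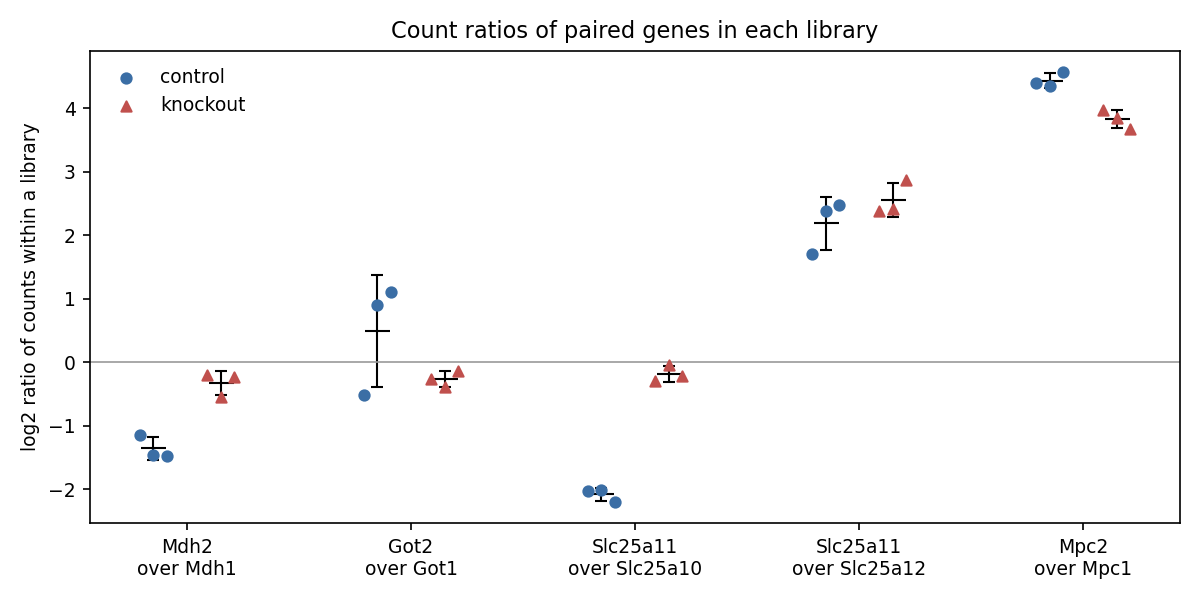
Ratio of the counts of paired genes within each library on a log2 scale, for 3 control (circles) and 3 knockout (triangles) libraries, with lines for the mean and bars for the SD. The ratios of Mdh2 to Mdh1, Slc25a11 to Slc25a10 and Mpc2 to Mpc1 do not overlap between genotypes, while those of Got2 to Got1 and Slc25a11 to Slc25a12 do.

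Scaling between libraries mattered for the sign of some of these genes. The TMM factors were 0.77, 0.84 and 0.84 in the controls against 1.22, 1.2 and 1.27 in the knockouts, and with library size alone the median over all genes moved from 0.01 to 0.60. Relative to that median, the library-size values of Mdh2, Slc25a11 and Slc25a10 were 1.34, 0.82 and -1.07, and those of Mdh1, Got1, Got2, Slc25a12, Mpc1 and Mpc2 were 0.29, 0.54, -0.06, 0.45, 0.37 and -0.25. Got2 was above 0 with library size alone (0.54, adjusted p = 0.007) and with upper-quartile factors (0.02, adjusted p = 0.90), and Mpc2 with library size alone (0.36, adjusted p = 0.051). With library size alone 7 of the 9 genes were called higher and 0 lower, in a fit that called 7711 genes higher and 617 lower.

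**Figure D3:**
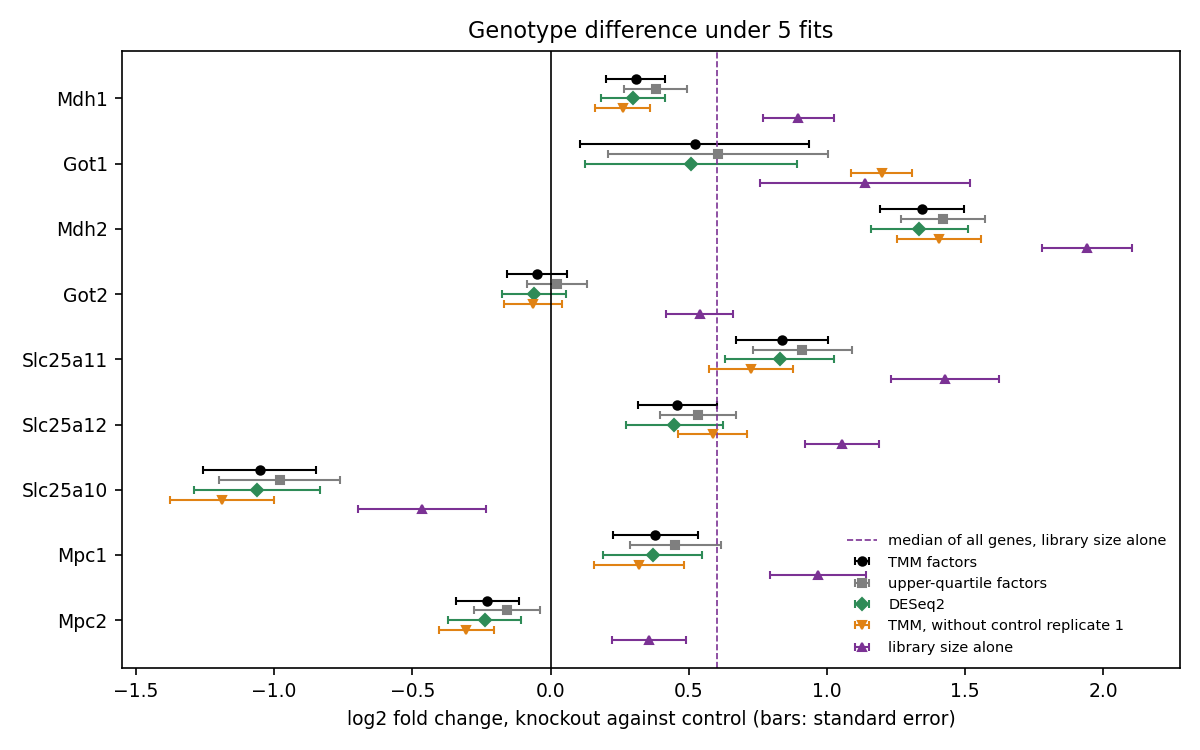
Log2 fold change of each gene, knockout against control, under 5 fits (symbols), with bars for the standard error and a dashed line at the median of all genes with library size alone. The library-size values (upward triangles) lie to the right of the TMM values. Got2 and Mpc2 change their side of 0 in the 5 fits drawn, and the other genes, called or not, keep theirs.

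Each gene was also set beside the 1 gene whose profile over the 6 libraries was closest, as the root mean square difference of centred log2 CPM among 9736 genes at 5 CPM or more. The nearest to Mdh2 was BC029722 (0.086), itself higher (log2 fold change 1.29, adjusted p = 0.0024, edgeR). Slc25a11 was nearest to Dab2ip (0.046), also higher (0.83, adjusted p = 0.0078, edgeR), and Slc25a10 to Lin54 (0.10), which was lower (-0.86, adjusted p = 0.03, edgeR). Mdh1 was nearest to Ndufv2 (0.028), a subunit of respiratory complex I. Got2 was nearest to Gsk3b (0.025), Slc25a12 to Trappc2l (0.035), Mpc1 to Slc44a2 (0.037) and Mpc2 to Adcy6 (0.011). The distance was widest for Got1 (0.14, to Zfp612). Among the 9 genes themselves the closest pairs were Mdh1 with Mpc1 (0.076) and Got2 with Mpc2 (0.11), while Mdh2 and Slc25a11 lay 0.33 apart. These are descriptions over 6 libraries that share the genotype contrast. A nearest gene therefore has a similar genotype difference by the way it was picked, and its call adds no support.

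The ChIP lists hold 16995 separate regions in the control and 1309 in the knockout, with 1 library each, so differences between them have no replicate check. The sample titles name RNA poll III as the target whereas the design text names Lcmr1, and the lists do not settle which protein was precipitated. Folds over background and -log10 q are the authors' values and are used within a list only. Control regions overlapped 8 of the 9 genes, against 39.2% of all tested genes (5932). Knockout regions overlapped 2 of the 9, Got1 and Got2, against 3.9% (591). A control summit lay within 1 kb of the start of 8 of the 9, against 31.4% of all tested genes, and a knockout summit of none, against 1.91%.

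Got1 was covered far more widely than the other genes. In the control list 16 regions with 33 summits covered 18923 of its 24854 bases (76.1%), which ranked 119 of 15135 genes by share covered. Their folds ran from 3.42 to 14.9, and the highest, 10561 bases into the gene, ranked 778 of 22793 summits in its list (-log10 q 31.3). The summit nearest the start lay 93 bases in. In the knockout list 7 regions covered 2220 bases (8.93%), ranked 146, with folds from 4.38 to 9.09. All 7 overlapped control regions, and the nearest knockout summit to the start was 5065 bases in. Got2 had 4 control regions, the highest at fold 7.92 with its summit 731 bases in, and 1 knockout region at fold 4.11 and -log10 q 1.49, close to the lowest value of 1.3 in that list.

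For most other genes the control regions sat at the start. Mdh2 had 1 region (chr5:135778458-135778868, fold 8.34, -log10 q 10.9, rank 3844) with its summit 123 bases past the start in the table and 46 bases before the RefSeq start. Slc25a11 had 1 region (fold 7.15) with its summit 567 bases past the table start and 127 past the RefSeq start, and this region also lies over Rnf167. Mpc1 (fold 12.8, rank 1195) and Mpc2 (fold 11.6, rank 1594) had the next highest folds after Got1, with summits 45 and 22 bases past their RefSeq starts. The Mpc2 region also lies over Dcaf6. Mdh1 had 2 regions, the higher at fold 4.11 (rank 18137) and 67 bases past its RefSeq start. Slc25a10 had a region of fold 3.42 (rank 21792 of 22793) that lay 5793 bases into the gene. Its -log10 q was 1.96, where the lowest value in the control list was 1.31. Another region lay just outside the gene (chr11:120491273-120491532, fold 4.58), with its summit at position -428 from the start. Slc25a12 had none in either list, and the nearest control summit was 312161 bases from its start. A control summit within 1 kb of the start was thus found at both genes that rose, at the 1 that fell, and at 5 of the 6 that were not called.

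**Figure D4:**
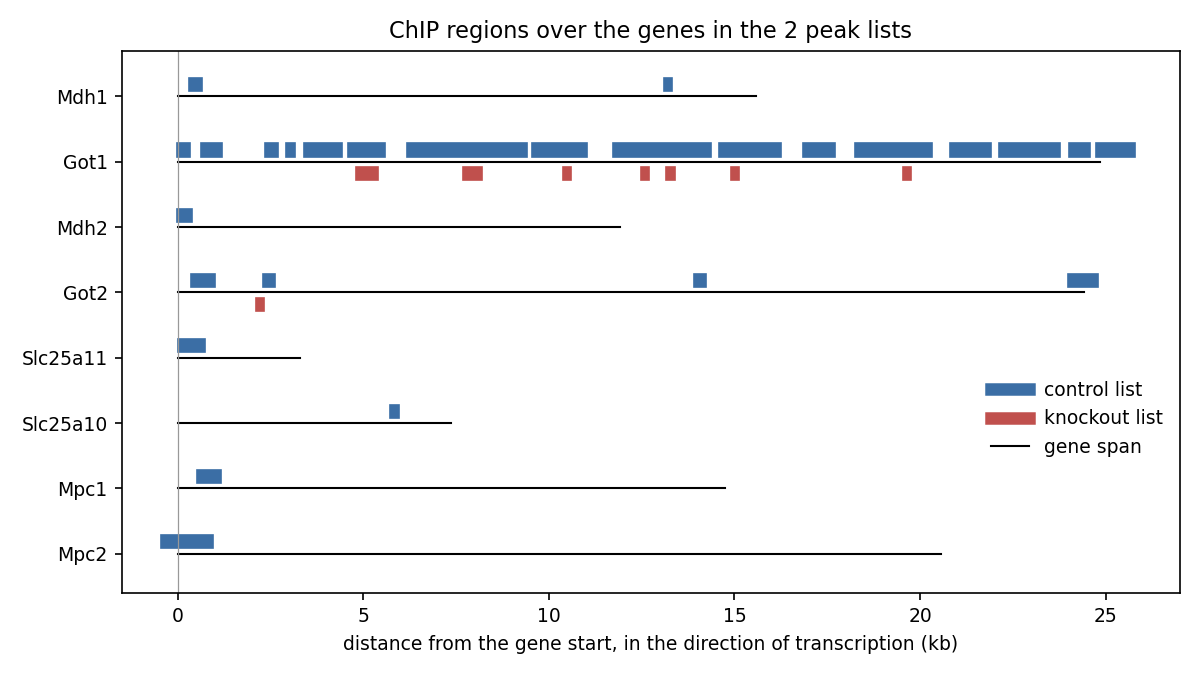
Control (above each line) and knockout (below each line) ChIP regions over 8 of the 9 genes, drawn to scale as distance in kb from the gene start in the direction of transcription, with the gene span as a line. Got1 carries 16 control and 7 knockout regions along its length and Got2 carries 4 and 1; the other 6 genes carry only control regions, and Slc25a12, not drawn, carries none.

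The sequences before the starts of 4 of these genes are printed because their ChIP regions differ. Mdh2 rose and has a region at its start, which covers 22 bases of its first line, and Got1 was covered along its length. Slc25a10 and Slc25a12 have no region over the printed bases, although a control region of Slc25a10 (chr11:120491273-120491532) ends shortly before them. The sequences were taken from RefSeq (GRCm38.p6, the assembly of mm10), where all 9 genes had an entry. They are written 5′ to 3′ on the strand of the gene. The lines end before both the RefSeq start and the start in the table, except the 30 bases around the Mdh2 site, which lie before the RefSeq start but past the table start, inside the gene span used for the ChIP overlap. Motifs were searched on both strands in the 250 bases before each RefSeq start: the cyclic AMP response half-site TGACG, the GC box GGGCGG and the CCAAT box CCAAT. They occurred in 17.8%, 32.7% and 33.8% of 32851 promoter windows and in 1, 5 and 5 of the 9 genes. Capitals mark the GC box in Mdh2, the full cyclic AMP response site in the second Mdh2 line and the CCAAT boxes of either strand in Got1. The windows of Slc25a10 and Slc25a12 hold none of these motifs.
Mdh2, chr5:135778399-135778479, plus strand: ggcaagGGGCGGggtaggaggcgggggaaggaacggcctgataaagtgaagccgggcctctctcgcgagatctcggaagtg
Mdh2 site, chr5:135778511-135778540, plus strand: ggagagaatcgTGACGTCAggcctcgctcg
Got1, chr19:43524606-43524855, minus strand: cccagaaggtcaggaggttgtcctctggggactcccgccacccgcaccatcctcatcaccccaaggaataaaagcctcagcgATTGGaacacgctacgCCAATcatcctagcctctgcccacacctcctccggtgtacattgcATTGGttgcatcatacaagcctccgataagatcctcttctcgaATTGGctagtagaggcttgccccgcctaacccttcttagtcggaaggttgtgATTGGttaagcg
Slc25a10, chr11:120491587-120491836, plus strand: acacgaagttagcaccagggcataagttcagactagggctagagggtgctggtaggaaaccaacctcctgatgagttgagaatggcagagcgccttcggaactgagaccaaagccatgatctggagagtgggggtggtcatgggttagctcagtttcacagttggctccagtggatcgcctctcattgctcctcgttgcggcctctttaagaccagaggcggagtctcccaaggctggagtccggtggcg
Slc25a12, chr2:71367756-71368005, minus strand: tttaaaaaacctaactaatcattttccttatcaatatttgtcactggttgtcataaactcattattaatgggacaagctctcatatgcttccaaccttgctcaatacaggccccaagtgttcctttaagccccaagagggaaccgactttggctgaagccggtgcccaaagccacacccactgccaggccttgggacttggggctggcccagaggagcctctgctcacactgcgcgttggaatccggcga

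The full site TGACGTCA of Mdh2, which reads the same on both strands, lies 127 to 120 bases before its RefSeq start and inside the control ChIP region. This 8-letter form occurred in 508 of the 32851 windows (1.55%). Got1 holds 5 CCAAT boxes, a number reached in 70 windows (0.213%), and 18 of its printed bases lie under a control region. Both counts were made after the matches were seen. The GC content of the 250 bases was 63.2% for Mdh2, 54.4% for Got1, 56% for Slc25a10 and 49.6% for Slc25a12, against a median of 52.4% over all windows, and it was highest for Mpc1 (73.6%) and Mpc2 (67.2%). A match is a description of letters and not evidence of binding.

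Lists of other mitochondrial genes were counted in the same fit, beside the 25.5% of all tested genes that were called. The called share was 33.3% of the partner genes, 42.9% of the pyruvate list, 31.2% of the citrate cycle, 33.3% of the glycerol phosphate shuttle and 27.8% of the other SLC25 carriers. No test of these shares was made, and none is read as particular to its list. Of 6 tested partners that supply or use glutamate, alanine or aspartate, 2 were lower and 0 higher (median log2 fold change -0.01). Besides Slc25a13 this was Glud1, glutamate dehydrogenase, which fell from 1443 ± 148 to 647.1 ± 24.1 CPM (log2 fold change -1.16, SE 0.12, adjusted p = 0.00081, edgeR). The alanine aminotransferases Gpt and Gpt2 (0.37 and -0.08) and the glutamate carriers Slc25a22 and Slc25a18 (0.06 and 0.57) did not pass. Control replicate 1 stood apart for Slc25a22 (788.1 CPM against 383.3 and 368.3 in the other controls) and Gpt2 (727.3 against 474.6 and 486.8). Without it, 1 partner was called higher and 2 lower. Without control replicate 2 or knockout replicate 1, the lower count was 1.

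Of 21 tested genes of pyruvate metabolism, 6 were higher and 3 lower (median 0.30). The lower ones were Pck1, cytosolic phosphoenolpyruvate carboxykinase, from 4519 ± 223 to 1837 ± 374 CPM (log2 fold change -1.30, adjusted p = 0.0017, edgeR), the cytosolic malic enzyme Me1, from 171.9 ± 56.4 to 47.7 ± 6.18 CPM (-1.85, adjusted p = 0.0029, edgeR), and pyruvate carboxylase Pcx, from 801.9 ± 80.9 to 613.6 ± 6.76 CPM (-0.39, adjusted p = 0.042, edgeR). The Pcx call was lost in 9 of 11 alternatives, all but DESeq2 and the fit without control replicate 1, with adjusted p from 0.012 to 0.13, and its log2 fold change was 0.21 with library size alone. The mitochondrial counterparts of Pck1 and Me1 moved the other way from low levels. Pck2 rose from 2.65 ± 0.39 to 10.2 ± 3.1 CPM (1.94, adjusted p = 0.0024, edgeR) and the malic enzyme Me2 from 1.95 ± 0.64 to 6.47 ± 0.52 CPM (1.73, adjusted p = 0.004, edgeR). Ldhb, a lactate dehydrogenase subunit of heart and other tissues, rose from 1.94 ± 0.23 to 7.46 ± 2.03 CPM (1.94, adjusted p = 0.0024, edgeR). With library size alone 15 of these 21 were higher and 2 lower.

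Of 16 citrate cycle genes 5 were higher and 0 lower (median 0.23). The isocitrate dehydrogenase genes Idh3g (log2 fold change 0.84, adjusted p = 0.0019, edgeR), Idh3a (0.59, adjusted p = 0.0046, edgeR) and Idh2 (0.41, adjusted p = 0.039, edgeR) and the 2-oxoglutarate dehydrogenase gene Ogdh (0.54, adjusted p = 0.023, edgeR) were among those that rose. The call of Idh2 was lost with the replicate block, and those of Idh2 and Ogdh without control replicate 2 or 3 or knockout replicate 1 or 3 (highest adjusted p 0.15 and 0.096), while Idh3g and Idh3a kept theirs in all 11 alternatives. The other 11, among them citrate synthase Cs (0.13), fumarase Fh1 (0.18) and the 4 succinate dehydrogenase genes (-0.07 to 0.28), were not called. Fh1 stood at 358.2 CPM in control replicate 1 and at 165.3 and 160.1 CPM in the other controls. Its knockouts stood at 267.4, 244.6 and 259.8 CPM. Without control replicate 1, 7 genes of this list were called higher. With library size alone 16 of 16 were higher.

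In the glycerol phosphate shuttle, the other route for cytosolic NADH, 1 of 3 genes was higher. This was Gpd1l (log2 fold change 0.47, adjusted p = 0.0497, edgeR), while Gpd1 (-0.44, adjusted p = 0.056) and Gpd2 (-0.60, adjusted p = 0.054) missed the threshold. The Gpd1l call was lost in 6 of 11 alternatives, with the replicate number as a block and without any 1 library other than control replicate 1 (adjusted p over the alternatives 0.002 to 0.13). With the block 0 genes of this shuttle were called higher and 2 lower, and 2 were also lower with DESeq2 and with no filter on low counts. Of 36 other tested SLC25 carriers, the family to which Slc25a10, Slc25a11 and Slc25a12 belong, 8 were higher and 2 lower (median 0.06). The smallest adjusted p among the higher were those of the adenine nucleotide carriers Slc25a4 (from 4.45 to 11.9 CPM, log2 fold change 1.43, adjusted p = 0.0035, edgeR) and Slc25a5 (from 392.7 to 646.5 CPM, 0.72, adjusted p = 0.0048, edgeR), followed by Slc25a35 (from 1.02 to 4.09 CPM, 2.0, adjusted p = 0.014, edgeR). Slc25a47 (from 776.1 to 336.7 CPM, -1.21, adjusted p = 0.011, edgeR) and Slc25a30 (from 100.6 to 38.7 CPM, -1.38, adjusted p = 0.019, edgeR) were lower. The Slc25a30 call was lost without control replicate 1 and with no filter on low counts (highest adjusted p 0.088). With library size alone 20 were higher and 2 lower.

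**Figure D5:**
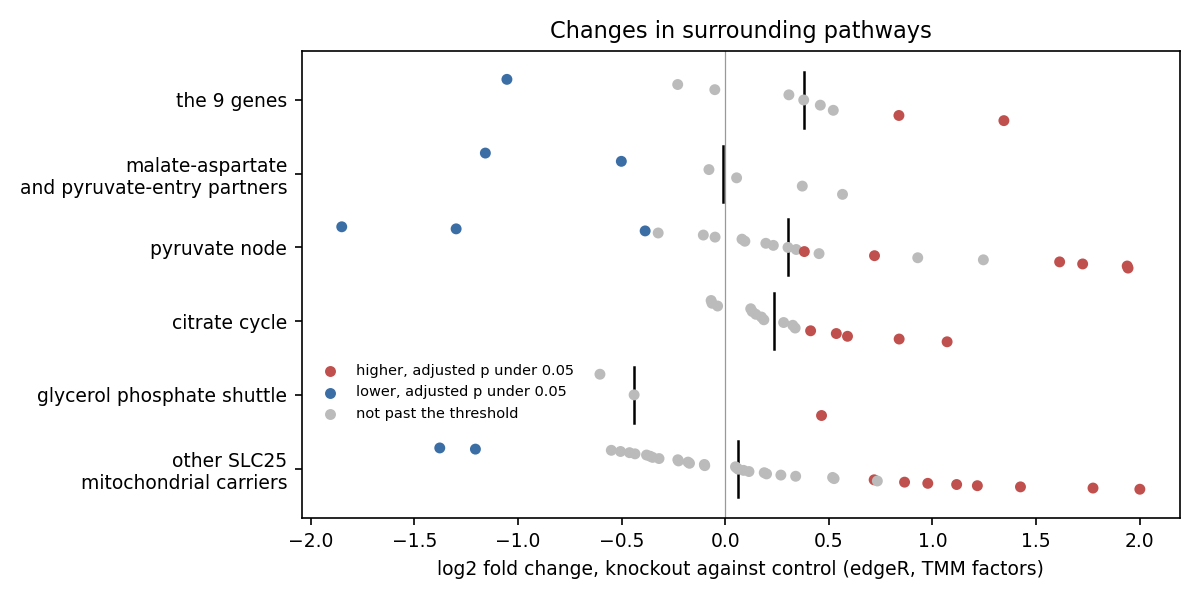
Log2 fold change of each tested gene, knockout against control, in the 9 genes and 5 surrounding lists, with a vertical bar at each list's median and colour for genes past the adjusted p threshold of 0.05 in either direction. The citrate cycle has 5 higher and 0 lower genes, whereas the 9 genes and the pyruvate list hold changes in both directions; the spread of points within a row is only for display.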

How the data were processed

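Members, gene lists and tests were chosen with earlier results of these data known. Per the submitters' processing notes, HTSeq 0.6.0, HISAT2 2.1.0 and Bowtie2 2.2.3 were used for the RNA reads, on mm10. The deposited table holds whole-number counts per gene, and the authors' own log2 fold change, fold (ratio) and p-value. The deposited ChIP lists, 1 per library, give a score, a fold over background as signal (ratio), and a -log10 p-value and q-value, and BWA and MACS2 are among the tools named by the authors. The sources used here do not give the strand setting or any input library.

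Counts were filtered with filterByExpr (minimum count 10, total 15) and TMM factors were computed. Genotype differences were tested with edgeR 4.0.16 (R 4.3.3) by its robust two-sided quasi-likelihood test, with genotype as the only term and Benjamini-Hochberg adjustment over 15135 genes. The common biological coefficient of variation was 0.235. DESeq2 1.42.0 was an alternative. Named list genes are all those past the threshold where 5 or fewer pass in a direction, otherwise the 3 with the smallest adjusted p. A gene that this rule takes is not reported here. Ratios used counts plus 0.5 and an exact permutation test. A region was assigned to a gene when it overlapped its span by at least 1 base. The scripts were tested on simulated data.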

Additional observations from a re-analysis of the deposited data

How the results depend on the processing

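Of the alternative values for the log2 fold changes of the 9 genes, 84 kept their direction and side of the threshold. With the same sign, 13 newly passed it and 1 no longer passed, and 3 changed sign. Of those 3, Got2 with library size alone also passed the threshold. The counts of higher and lower genes among the 9, which were 2 and 1, became 7 and 0 with library size alone. The higher count was 4 with upper-quartile factors and 4 with DESeq2, through Mdh1 and Slc25a12. With 1 library left out they ran from 2 to 4 and from 1 to 2, the upper values without control replicate 1, through Got1, Slc25a12 and Mpc2. Over all genes, library size alone gave 7711 higher and 617 lower. Leaving out 1 library gave 1119 to 2407 higher and 1104 to 2514 lower. The signs that changed were Got2, at 0.54 with library size alone and 0.022 with upper-quartile factors, and Mpc2, at 0.36 with library size alone. Slc25a13, a partner gene outside the 9, also changed sign with library size alone, at 0.086. The cause was not tested; with library size alone the median over all genes was 0.59 higher on the log2 scale.

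With 1 library left out, higher genes ran from 3 to 8 and lower from 2 to 4 in the pyruvate list, higher genes from 3 to 7 in the citrate cycle and from 4 to 9 among other SLC25 carriers, and lower carriers from 2 to 5. The number of genes with a knockout ChIP region, which was 2, was 1 at a -log10 q of at least 2 and 0 for summits within 1 kb of a start, an alternative chosen after seeing the data, whereas the control count of 8 ran from 7 to 8.

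Same-numbered control and knockout libraries had correlated deviations of 0.11, 0.052 and 0.094, so the numbers were taken as names only, although each control correlated best with its own number, a hint from the data and not the design. With the replicate number as a block, 3468 genes were called against 3865, and the 9 genes gave 2 higher and 1 lower. Counts per library were lowest for Mpc1 (166 to 426) and Slc25a12 (278 to 758).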
